A study of Mus musculus with 6 samples.

Results

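This account covers genes of the cellular response to osmotic stress and of organic osmolyte transport in mpkCCD clone 11 cells, an immortalised line from the mouse kidney cortical collecting duct, after exposure to the vasopressin analog dDAVP. A list of 8 genes was drawn up (Nfat5, Akr1b3, Hspa1b, Hspa4l, Slc5a3, Slc6a6, Slc6a12 and Slc14a2), and its members were all probe sets whose platform annotation gives one of these symbols and no other gene. The rule found 18 of 28225 probe sets, for 5 of the 8 genes: 5 for Nfat5, 3 for Hspa1b, 5 for Hspa4l, 3 for Slc5a3 and 2 for Slc6a6. Akr1b3, Slc6a12 and Slc14a2 had no such probe set in the table used and were not analysed here. The cells were grown as a polarized layer on a membrane and, once the layer's electrical resistance was at least 5 kohm per cm2, received either 0.1 nM dDAVP (desmopressin, which acts on the vasopressin V2 receptor) or vehicle for 5 days. Total RNA from 3 dDAVP and 3 vehicle samples, described as biological replicates, was measured on Affymetrix Mouse Genome 430 2.0 arrays. All cells of both groups came from 1 clone of 1 cell line, and the labels mention no change in the osmolality of the medium in either group. The labels do not say whether replicates were separate passages or days, so the p-values cover no more than the spread among these 6 samples. The comparison asks which of these transcripts differed after long V2 receptor stimulation.

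Cells of the renal medulla live in a concentrated interstitium and balance it by accumulating small organic osmolytes, among them sorbitol, myo-inositol, betaine and taurine. The transcription factor NFAT5, also called TonEBP, drives this programme in hypertonic medium: it binds tonicity-responsive enhancers of genes for osmolyte transporters, for the sorbitol-making enzyme aldose reductase, for urea transporters and for heat shock proteins. Vasopressin acts on collecting duct cells through cAMP and raises their water permeability.

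Slc5a3 and Nfat5 carried the larger differences described below, so the 250 bases before their RefSeq transcription start are shown (build GRCm38.p6, plus strand for both, chr16:92058072-92058321 for Slc5a3 and chr8:107293220-107293469 for Nfat5). Capitals mark the GC box GGGCGG on either strand, which overlaps itself in the Slc5a3 sequence.
Slc5a3: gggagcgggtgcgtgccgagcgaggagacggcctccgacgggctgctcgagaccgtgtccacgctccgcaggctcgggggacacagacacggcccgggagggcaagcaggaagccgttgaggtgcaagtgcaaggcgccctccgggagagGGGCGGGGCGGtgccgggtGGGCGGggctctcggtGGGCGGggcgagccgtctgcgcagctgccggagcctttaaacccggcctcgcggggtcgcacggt
Nfat5: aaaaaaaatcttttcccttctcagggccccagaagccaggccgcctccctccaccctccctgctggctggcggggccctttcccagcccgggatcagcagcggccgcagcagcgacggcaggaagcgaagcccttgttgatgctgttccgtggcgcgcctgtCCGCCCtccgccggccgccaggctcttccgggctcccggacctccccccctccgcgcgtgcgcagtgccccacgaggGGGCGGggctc
The Slc5a3 sequence held 4 matches to the GC box and the Nfat5 sequence 2, and 32.7% of 32851 RefSeq promoter windows of the same length hold at least 1. Their GC content was 74.8% for Slc5a3 and 71.6% for Nfat5, beside a median of 52.4% over all windows. The TGGAAA core of the tonicity-responsive enhancer, present in 18.6% of windows on either strand, was not among the letters of either sequence. Nor was the cAMP response element TGACGTCA (1.55% of windows) or the shorter TGACG it contains (17.8%). Among the other members searched, a Slc6a12 window held TGGAAA, at positions -75 to -70 from the start, and TGACG. Of TGGAAA, TGACGTCA and TGACG, the Hspa4l window held TGACG alone, and the other Slc6a12 windows and that of Hspa1b held none. The GC box had 4 matches in the Hspa4l window, 3 in that of Hspa1b and 0 in each Slc6a12 window. RefSeq promoter windows were searched for 5 of the 8 genes. Slc6a6 and Akr1b3 had no window in the set used, and Slc14a2 was left out of the search.

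Of the 18 member probe sets, 0 changed with dDAVP in limma at a Benjamini-Hochberg adjusted p below 0.05, a threshold passed by 0.216% of all 28225 probe sets (61 probe sets), 0.188% higher and 0.0283% lower with dDAVP. Before adjustment, 7 members had a p below 0.05, 3 higher and 4 lower, beside 7.98% of all probe sets, 4.85% higher and 3.13% lower. The lowest adjusted p of a member was 0.291. The groups of arrays did not overlap for 10 of the 18, 6 with all dDAVP arrays above and 4 with all dDAVP arrays below the vehicle arrays, beside 13.4% of all probe sets, 8.07% above and 5.35% below. These probe sets are not independent, since those of a gene measure the same transcripts on the same arrays. The median log2 change was 0.03 over the 18 and 0.0039 over all probe sets. Its median size without sign was 0.14 over the members and 0.064 over all.

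**Figure D1:**
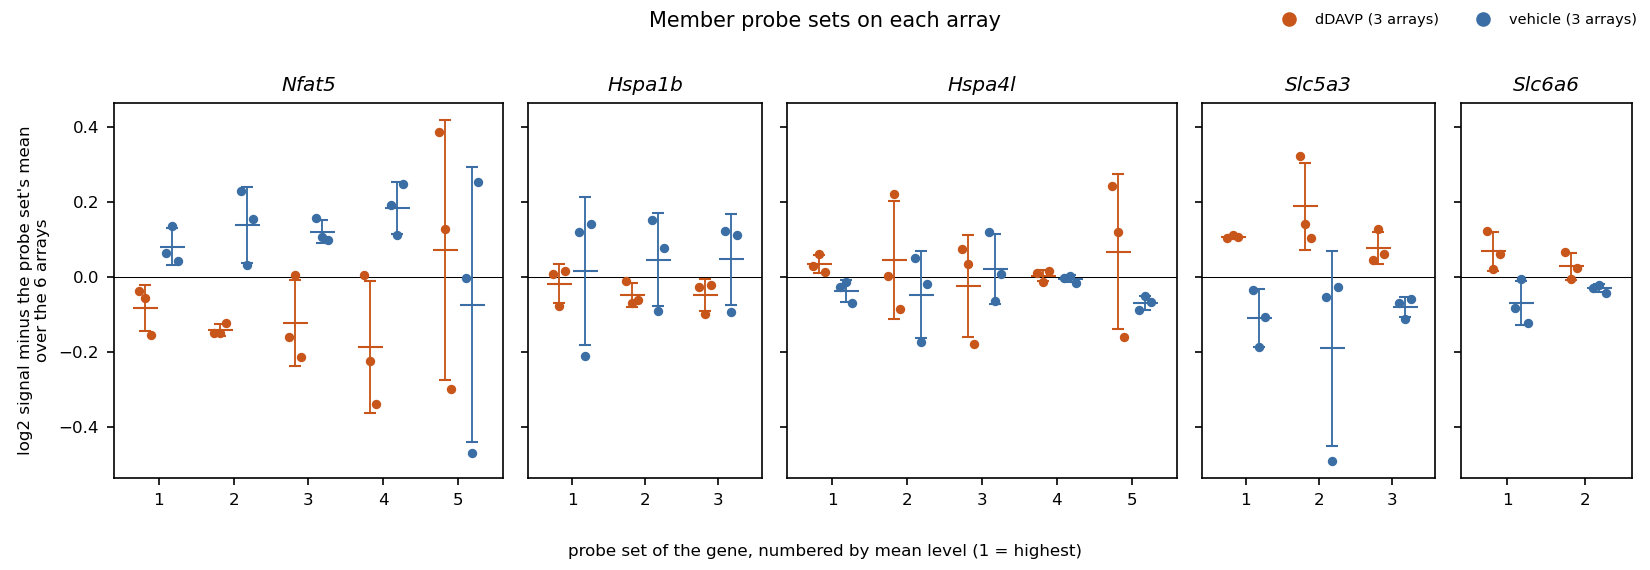
Log2 signal of each member probe set on each array, after subtraction of that probe set's mean over the 6 arrays, with dDAVP arrays to the left of vehicle arrays. Points are arrays in replicate order, horizontal bars are group means and whiskers are SD (n = 3). All dDAVP points lie above all vehicle points for the 3 Slc5a3 and 2 Slc6a6 probe sets, and below them for 4 of the 5 Nfat5 probe sets.

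Slc5a3 encodes the sodium-coupled myo-inositol transporter SMIT1, which loads cells with myo-inositol. Its brightest probe set, 1435484_at, measured 10.52, 10.53 and 10.52 log2 units in dDAVP arrays, against 10.38, 10.23 and 10.31 in vehicle arrays. The dDAVP arrays were nearly identical, and the vehicle arrays were all lower and more scattered. The means were 10.53 ± 0.0047 with dDAVP and 10.31 ± 0.077 with vehicle (SD, n = 3). The log2 change was 0.22 ± 0.062 (SE), a 1.16-fold higher signal with a 95% interval of 1.05 to 1.28. It did not pass the test (limma adjusted p = 0.397).

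The second Slc5a3 probe set, 1440227_at, had 7.16, 6.98 and 6.94 log2 units in dDAVP arrays, against 6.78, 6.35 and 6.81 in vehicle arrays. The groups did not overlap, and vehicle replicate 2 lay below the other vehicle arrays. Its log2 change was 0.38 ± 0.13 (SE, limma adjusted p = 0.498). The dimmest, 1422170_at, had 4.11, 4.19 and 4.13 in dDAVP arrays, against 3.999, 3.956 and 4.008 in vehicle arrays. Here the groups were again separate, at a level near the lower end of the scale, and the log2 change was 0.16 ± 0.057 (SE, limma adjusted p = 0.525). All 3 Slc5a3 probe sets thus lay above vehicle on every dDAVP array. Among the 1542 genes with 3 probe sets, 1.36% had all 3 separated in the same direction.

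Nfat5 encodes the tonicity-regulated transcription factor itself. Its brightest probe set, 1438999_a_at, measured 10.65, 10.63 and 10.54 log2 units in dDAVP arrays, against 10.75, 10.83 and 10.73 in vehicle arrays. All dDAVP arrays lay below all vehicle arrays, by a log2 change of -0.16 ± 0.062 (SE). That is 0.893 of the vehicle signal, with a 95% interval of 0.808 to 0.987, and it did not pass (limma adjusted p = 0.561).

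A larger difference was measured by the next Nfat5 probe set, 1439805_at, which had 8.75, 8.75 and 8.78 log2 units in dDAVP arrays, against 9.13, 8.93 and 9.05 in vehicle arrays. The dDAVP values differed little among themselves and lay below every vehicle value. The log2 change was -0.28 ± 0.068 (SE, 0.824 of the vehicle signal, 95% interval 0.739 to 0.919), and its adjusted p of 0.291 in limma was the lowest of any member.

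The Nfat5 probe set 1439328_at had 8.02, 8.18 and 7.96 log2 units in dDAVP arrays, against 8.33, 8.28 and 8.27 in vehicle arrays, a log2 change of -0.24 ± 0.072 (SE). Probe set 1451921_a_at had 5.94, 5.71 and 5.60 in dDAVP arrays, against 6.13, 6.05 and 6.18 in vehicle arrays, a log2 change of -0.37 ± 0.095 (SE). In both, dDAVP replicate 1 or 2 came close to the vehicle arrays without reaching them. Neither passed, at limma adjusted p = 0.416 for 1439328_at and 0.318 for 1451921_a_at.

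The dimmest Nfat5 probe set, 1448966_a_at, had 5.34, 5.08 and 4.65 log2 units in dDAVP arrays, against 4.95, 4.48 and 5.21 in vehicle arrays. The groups overlapped widely, the SD was 0.35 with dDAVP and 0.37 with vehicle, and the log2 change was 0.15 ± 0.22 (SE, limma adjusted p = 0.930). It was -0.01 without dDAVP replicate 1, -0.05 without vehicle replicate 2, and 0.33 without dDAVP replicate 3. Its 95% interval of -0.35 to 0.64 contains the changes of 3 of the other Nfat5 probe sets. Of the 313 genes with 5 probe sets, 1.6% had at least 4 separated in the same direction, as Nfat5 had. The sources used here do not say which transcript forms each probe set detects.

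**Figure D2:**
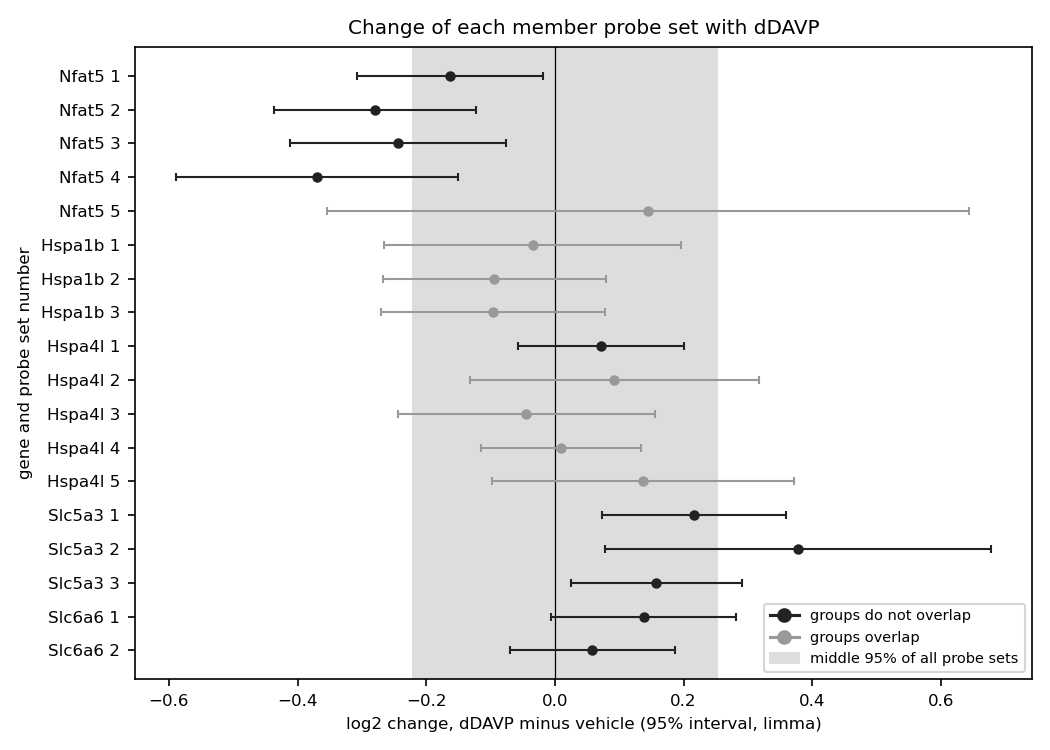
Log2 change (dDAVP minus vehicle) of each member probe set with its 95% interval from limma, black where the groups of arrays do not overlap and grey where they do. Probe sets are numbered within a gene by mean level, and the band spans the middle 95% of all probe sets, -0.22 to 0.25. Nfat5 probe sets 2, 3 and 4 lie below the band and Slc5a3 probe set 2 above it.

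Slc6a6 encodes the sodium- and chloride-dependent taurine transporter TauT. Its brighter probe set, 1437149_at, measured 10.05, 9.95 and 9.99 log2 units in dDAVP arrays, against 9.84, 9.92 and 9.80 in vehicle arrays. The groups were separate by a narrow margin, set by dDAVP replicate 2 and vehicle replicate 2. The log2 change was 0.14 ± 0.062 (SE, 95% interval of the fold 0.996 to 1.22, limma adjusted p = 0.638). The other probe set, 1421346_a_at, had 9.03, 8.95 and 8.98 in dDAVP arrays, against 8.93, 8.94 and 8.92 in vehicle arrays, a log2 change of 0.06 ± 0.055 (SE, limma adjusted p = 0.876). Both Slc6a6 probe sets were separated in the same direction, as were both probe sets of 3.92% of the 3240 genes that have 2. The upper bounds of their 95% intervals were 1.22-fold and 1.14-fold.

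Hspa4l encodes Osp94, a chaperone of the Hsp110 family first described as an osmotic stress protein of the renal medulla. Its brightest probe set, 1418253_a_at, measured 8.24, 8.27 and 8.22 log2 units in dDAVP arrays, against 8.18, 8.20 and 8.14 in vehicle arrays. The groups did not overlap, but the log2 change was 0.07 ± 0.055 (SE, fold 1.05, 95% interval 0.961 to 1.15, limma adjusted p = 0.839). Probe set 1449010_at, the most even of all members across arrays, had 7.23, 7.21 and 7.24 in dDAVP arrays, against 7.22, 7.23 and 7.21 in vehicle arrays, a log2 change of 0.0089 ± 0.054 (SE, limma adjusted p = 0.984). The groups overlapped for the remaining 3 Hspa4l probe sets, whose log2 changes were 0.09 ± 0.097 (1439093_at), -0.04 ± 0.086 (1429106_at) and 0.14 ± 0.10 (1458385_at, SE). Their limma adjusted p values were 0.891, 0.951 and 0.825. Leaving out single arrays moved these values: 1439093_at was at 0.0052 without dDAVP replicate 2, and 1458385_at at 0.049 without dDAVP replicate 1 and 0.25 without dDAVP replicate 3. The change of 1429106_at was positive without dDAVP replicate 3 (0.03) or vehicle replicate 1 (0.0050) and with scaling to the hybridisation controls (0.10). Both 1429106_at and 1449010_at kept their sign in 12 of 15 settings.

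Hspa1b encodes an inducible cytosolic Hsp70. Its near-identical neighbour Hspa1a shares almost all of the promoter: of the 250 bases before each RefSeq start, 247 were the same and 3 differed (98.8% identical in ungapped alignment). The Hspa1b stretch is shown for its heat shock element core, GAANNTTC, in capitals (GRCm38.p6, minus strand, chr17:34959239-34959488).
Hspa1b: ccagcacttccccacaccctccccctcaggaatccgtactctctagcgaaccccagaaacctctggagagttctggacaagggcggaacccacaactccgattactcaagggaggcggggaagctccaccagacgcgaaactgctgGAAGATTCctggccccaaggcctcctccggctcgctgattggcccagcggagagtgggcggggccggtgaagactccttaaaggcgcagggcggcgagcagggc
The core spans positions -104 to -97 from the start in both genes, and 6.69% of all windows hold it. It overlaps none of the other motifs searched.

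The brightest Hspa1b probe set, 1452318_a_at, measured 11.97, 11.89 and 11.98 log2 units in dDAVP arrays, against 12.09, 11.76 and 12.11 in vehicle arrays. All dDAVP values fell inside the vehicle range. The log2 change was -0.03 ± 0.10 (SE, fold 0.976, 95% interval 0.832 to 1.15, limma adjusted p = 0.965), and its sign turned with scaling to the hybridisation controls and without vehicle replicate 1 or 3. The other probe sets, 1427127_x_at and 1427126_at, gave -0.09 ± 0.075 and -0.10 ± 0.075 (SE, limma adjusted p = 0.844 and 0.843), also with overlapping groups and also positive after scaling to the hybridisation controls (0.05 each). Whether these probe sets tell Hspa1b from Hspa1a was not tested. The probe set annotated to Hspa1a, 1452388_at, changed by 0.03 ± 0.097 (SE, limma adjusted p = 0.965).

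The 3 Hspa1b probe sets varied together between vehicle arrays. Averaged over the 3 and taken relative to all 6 arrays, vehicle replicate 2 stood at -0.13, against 0.13 and 0.11 in vehicle replicates 1 and 3, while the dDAVP arrays stood at -0.0093, -0.081 and -0.022. The mean of 18 heat shock factors and other chaperones was also lowest in vehicle replicate 2, at -0.044, beside 0.030 and 0.032 in replicates 1 and 3, and lay between -0.0095 and -0.00016 in the dDAVP group. Of the 18, 5 were lowest on vehicle replicate 2 and 3 were highest there, beside 4 lowest on each of dDAVP replicates 1 and 3. Vehicle replicate 2 was also the lowest array for all 3 Slc5a3 probe sets. Without this array the Slc5a3 log2 changes were 0.18 for 1435484_at, 0.23 for 1440227_at and 0.14 for 1422170_at.

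Correlations of the brightest probe sets over the 6 arrays, given as a description, were -0.89 between Nfat5 and Slc5a3, 0.75 between Slc5a3 and Hspa4l, 0.80 between Hspa4l and Slc6a6 and 0.66 between Slc5a3 and Slc6a6. Those of Nfat5 with Hspa4l and Slc6a6 were -0.56 and -0.57. Hspa1b was at -0.20 with Nfat5, -0.49 with Hspa4l, 0.17 with Slc5a3 and -0.43 with Slc6a6. These values share the 6 arrays and include the difference between the groups. Over the same 6 arrays the probe sets most like 1435484_at of Slc5a3 were those of Ndrg4 (Pearson r = 0.998), Hsdl1 (r = 0.997) and Abcc4, which encodes an exporter of cyclic nucleotides (r = 0.991). They were the 3 highest among all named probe sets that are not members, and their log2 changes were 0.29, 0.07 and 0.14 (limma adjusted p = 0.282, 0.849 and 0.585).

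Other genes of the pathway were taken from 7 lists with 95 genes, of which 74 were measured and represented by their brightest probe set. Among the 74, 2 rose, 0 fell and 72 did not pass in limma, and 11 had an unadjusted p below 0.05 (8 higher, 3 lower). By the same rule 36 of all 12364 named genes changed (0.291%), and 7.8% of them had an unadjusted p below 0.05. The median log2 change was 0.014 over the 74 genes and 0.012 over all named genes. Both genes that rose belong to a list of other genes induced by hypertonic medium: Aqp2, the vasopressin-regulated water channel, and Fxyd2, the gamma subunit that modulates the sodium pump. Aqp2 measured 10.85 ± 0.072 log2 units with dDAVP and 6.70 ± 0.042 with vehicle (SD, n = 3, limma adjusted p = 1.66e-07). Aqp2 also served as the check that the cells responded to dDAVP, and the lists were chosen with earlier results of these data known. The count of pathway genes that passed, beside the share of all named genes, is therefore a description only. Fxyd2 measured 9.53 ± 0.021 log2 units with dDAVP and 8.91 ± 0.090 with vehicle (SD, n = 3, log2 change 0.62, limma adjusted p = 0.0137). Leaving out any 1 array other than vehicle replicate 2 ended the Fxyd2 call. The remaining 8 of the 10 measured members of that list did not pass, including the sodium pump subunit Atp1b1 (0.22 ± 0.077, SE), the stress-induced gene Gadd45b (-0.18 ± 0.063, SE) and the prostaglandin synthase Ptgs2 (0.40 ± 0.14, SE), chosen after their values were seen. Ptgs2 passed with scaling to the hybridisation controls (0.55, limma adjusted p = 0.0494).

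**Figure D3:**
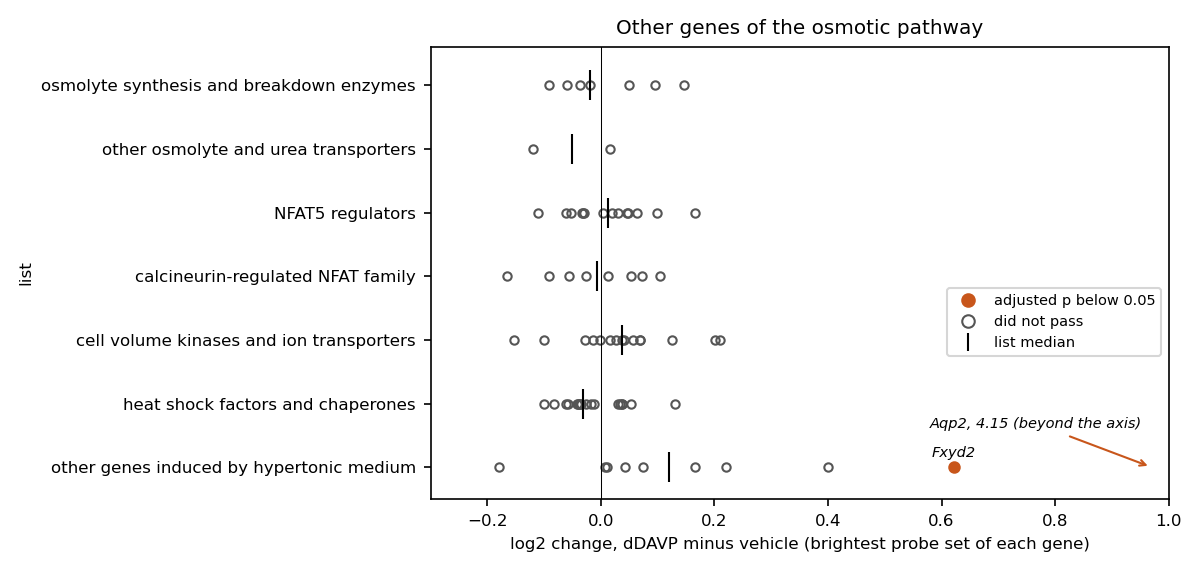
Log2 change (dDAVP minus vehicle) of the brightest probe set of each measured gene in the 7 pathway lists. Filled circles passed at an adjusted p below 0.05, open circles did not, and vertical bars are list medians. Of the genes within the axis Fxyd2 is filled, and an arrow marks Aqp2, which also passed and whose value of 4.15 lies beyond it.

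The osmolyte synthesis and breakdown enzymes had 7 of 14 genes measured, none changed (0 up, 0 down) and the median was -0.02. The lowest unadjusted p values were those of Gpcpd1, which breaks down glycerophosphocholine (0.15 ± 0.061, SE, limma adjusted p = 0.605), and the betaine aldehyde-oxidising enzyme Aldh7a1 (0.10 ± 0.056, SE, limma adjusted p = 0.749). Of other osmolyte and urea transporters only the creatine transporter Slc6a8 (-0.12 ± 0.083, SE) and the amino acid transporter Slc38a2 (0.02 ± 0.077, SE) were measured, and neither passed (limma adjusted p = 0.811 and 0.980).

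Among 14 measured NFAT5 regulators 0 passed and the median was 0.01. Map2k3, a kinase that activates p38, was at 0.17 ± 0.055 (SE, limma adjusted p = 0.479), and the phospholipase Plcg1 at -0.11 ± 0.064 (SE, limma adjusted p = 0.743). The calcineurin-regulated relatives of Nfat5 and their phosphatase had 0 of 8 passing and a median of -0.0067. The lowest p values there were those of Nfatc3 (-0.16 ± 0.064, SE, limma adjusted p = 0.565) and the calcineurin catalytic subunit Ppp3cb (-0.09 ± 0.056, SE, limma adjusted p = 0.770).

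Cell volume kinases and ion transporters had 0 of 15 passing and a median of 0.04. Lrrc8c, a subunit of the volume-regulated anion channel, was at 0.20 ± 0.066 (SE, limma adjusted p = 0.473), and Oxsr1, a kinase that phosphorylates cation-chloride cotransporters, at -0.15 ± 0.057 (SE, limma adjusted p = 0.539). Heat shock factors and chaperones had 0 of 18 passing, 0 at an unadjusted p below 0.05 and a median of -0.03. Their changes lay between -0.10 and 0.13, with Hspe1, the mitochondrial co-chaperonin, at the upper end (0.13 ± 0.076, SE, limma adjusted p = 0.748) and the Hsp40 Dnajb1 at -0.08 ± 0.062 (SE, limma adjusted p = 0.829).

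The medians of the arrays spanned 0.043 log2 units, and any pair of arrays correlated at 0.996 to 0.998 across probe sets. All 18 member probe sets and 25177 of all 28225 probe sets had a mean above 3.56 log2 units. This cut was the 95th percentile of the means of 10 olfactory receptor probe sets, used as a yardstick for no expression. It rests on the probe sets present in the table used, and whether dim ones had been left out of it was not tested. All 10 measured principal cell markers were above it, as were 2 of 2 intercalated cell and 3 of 3 proximal tubule markers. The measured markers of the loop of Henle and distal convoluted tubule (0 of 1) and endothelium (0 of 1) were not, and those of fibroblasts (1 of 2) and leukocytes (1 of 2) were in part. The intercalated cell markers averaged 6.73 to 7.01 log2 units over dDAVP arrays, against 6.48 to 6.59 over vehicle arrays. Neither of these markers passed (limma adjusted p = 0.153 for Atp6v1b1 and 0.397 for Atp6v0a4). Principal cell markers averaged 7.90 to 7.98 over dDAVP arrays, against 7.32 to 7.38 over vehicle arrays. Of the 10, 3 rose: Aqp2 (log2 change 4.15), the sodium pump regulator Fxyd4 (0.68) and the V2 receptor Avpr2 (0.52). Aqp2 weighs heavily in these averages. The median log2 change of the 10 was 0.19, with 7 positive and Hsd11b2, Gata3 and Elf5 negative. The 2 measured leukocyte markers averaged 4.46 to 4.51 over dDAVP arrays, against 4.19 to 4.38 over vehicle arrays. Of these Ptprc, at a mean of 3.21, lay below the cut. Neither passed (limma adjusted p = 0.642 for Ptprc and 0.593 for Cd68). The part of these markers in the member values was not tested. In bulk RNA, a change in the number of cells of a type and a change per cell cannot be told apart.

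**Figure D4:**
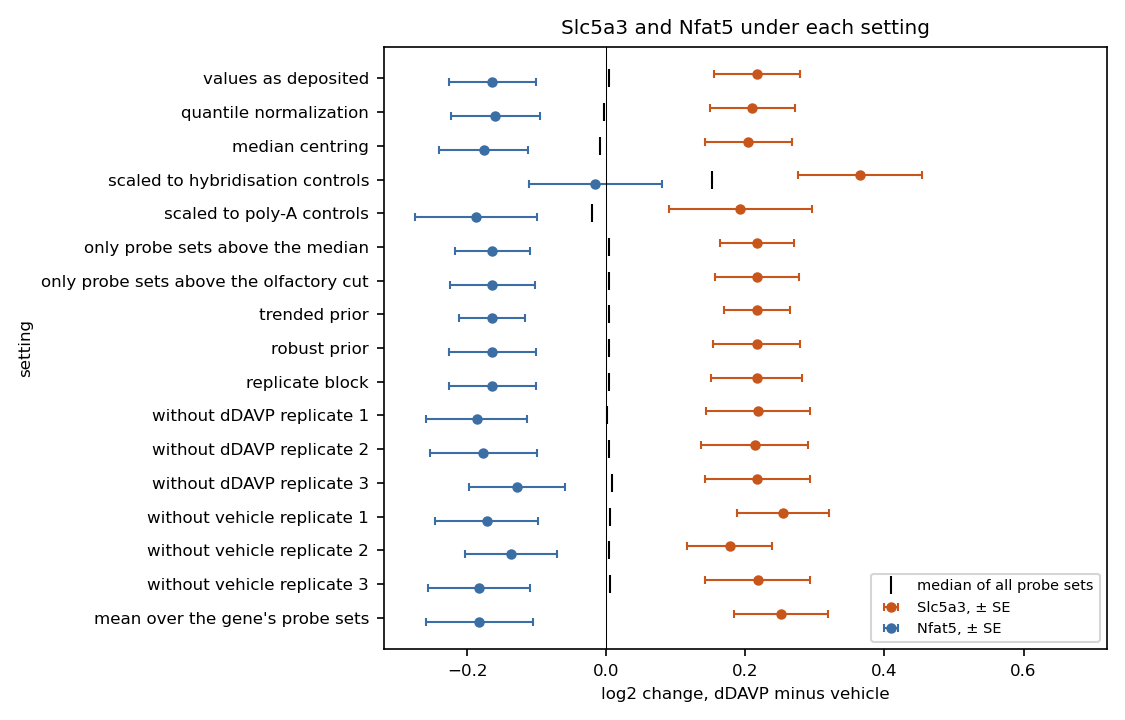
Log2 change (dDAVP minus vehicle, ± SE) of the brightest Slc5a3 and Nfat5 probe sets with the values as deposited and under each alternative processing, with the median of all probe sets as a black bar. The last setting averages all probe sets of a gene. Slc5a3 stays above and Nfat5 below the median of all probe sets wherever that is drawn, and scaling to the hybridisation controls moves all 3 upward.

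The direction of the difference was the same under every alternative that tested them for all Slc5a3 probe sets, for both Slc6a6 probe sets and for the 4 Nfat5 probe sets that were lower. Only the normalizations and scalings could have changed it. Filters, priors, the threshold and the replicate block leave a log2 change as it was. Leaving out 1 array cannot reverse groups that do not overlap. Averaged over its probe sets, Slc5a3 changed by 0.25 ± 0.068 (SE, limma adjusted p = 0.229) and Nfat5 by -0.18 ± 0.077 (SE, limma adjusted p = 0.502). Scaling each array to its hybridisation controls moved the median of all probe sets to 0.15. Then 1 member passed, the Slc5a3 probe set 1440227_at at 0.53 (limma adjusted p = 0.0423), which is 0.37 above that median, and the brightest Nfat5 probe set was at -0.02.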

How the data were processed

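Total RNA of 3 dDAVP and 3 vehicle samples was hybridised to 1 array each. The deposited values are log2 signals, with 1 per probe set on each array. Whether the table used holds every probe set of the array was not checked. Counts over all probe sets refer to that table, and a gene given as not measured may have probe sets on the array. Per the submitters' processing notes the tools were MAS5, RMA and Affymetrix Expression Console 1.1, and the sources used here do not say which of them gave the values. The signals, 2.15 to 14.12 with none missing (0), were taken as normalized between arrays. Ratios of dim probe sets may be compressed by such summaries. The number of arrays limits the precision.

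The 62 control probe sets were left out. Names came from the platform annotation (23097 probe sets with 1 gene, 611 with several, 4517 with none), and 0 symbols changed on update through RefSeq gene IDs. No genome build is named for the arrays, so coordinates are given for RefSeq promoter sequences alone.

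Groups were compared with limma 3.58.1 in R 4.3.3 (lmFit, eBayes) on the values as deposited, with Benjamini-Hochberg adjustment over 28225 probe sets and a threshold of 0.05. A gene's brightest probe set has the highest mean over the 6 arrays. Standard errors and 95% intervals came from that moderated fit. The code was tested on simulated data.

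All members were named. From each pathway list, genes that passed were named, otherwise the 2 with the lowest unadjusted p, and likeness was the Pearson correlation with that brightest probe set which had the lowest p among the brightest probe sets of the member genes. The members and lists were chosen with earlier results of these data known. The counts of genes with all or most probe sets separated in the same direction were added after the values were seen. Alternatives were quantile normalization, median centring, scaling to hybridisation or poly-A controls, filters on dim probe sets at the median or at the olfactory receptor percentile, trended and robust priors, a replicate block, each array left out, a threshold of 0.01, and a gene's probe sets averaged.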

Additional observations from a re-analysis of the deposited data

How the results depend on the processing

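No member probe set passed in limma (0, with 7 at an unadjusted p below 0.05), and this count stayed at 0 under every alternative except scaling to the hybridisation controls, where 1 passed. The number of member genes that passed, by brightest probe set, was 0 throughout. The lowest adjusted p of any member otherwise ranged from 0.0714 with a trended prior to 0.739 with scaling to the poly-A controls. Of pathway genes 2 passed, 1 at a threshold of 0.01 and 3 with scaling to the hybridisation controls. Leaving out 1 array gave 1 to 2. With the replicate number as a block 1 passed, Aqp2, and over all probe sets 24 passed in place of 61. Same-numbered arrays deviated from their group means with correlations of 0.20, 0.046 and -0.052, and differently numbered arrays with -0.21 to 0.17. The numbers were not taken as pairs. With 3 arrays in each group, these correlations cannot settle whether the replicates were paired. The Hspa1b change of -0.03 turned to 0.11 with scaling to the hybridisation controls and lay between -0.15 and 0.03 when 1 array was left out, positive without vehicle replicate 1 (0.017) or 3 (0.027). The count over all probe sets, 61, was 282 with that scaling, 146 with a trended prior, 95 above the median level, and 22 to 46 with 1 array left out. Probe sets near the lower end of the scale, such as 1422170_at of Slc5a3, can understate a change.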
